A study of Mus musculus with 860 samples.

Results

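The genes described here are 39 genes of DNA replication and S phase, out of 46078 genes in the deposited count table. They were named by function, in a choice made with earlier results of these data known. They are the Mcm2 to Mcm7 helicase subunits with their loaders, the proteins that start the helicase, DNA polymerases and primase, the sliding clamp and its loader, RPA, the enzymes that finish the lagging strand, the enzymes that supply deoxynucleotides, and genes of uracil repair, methylation upkeep and chromatin assembly behind the fork. All 39 were found in the table, and 38 reached 10 CPM (counts scaled to a library total of 1000000) on the higher side of every comparison below. The exception was Fen1. The cells came from the aorta-gonad-mesonephros (AGM) region of mouse embryos bred from Gfi1:tomato and CD1 animals, in which the tomato reporter stands at the Gfi1 gene. Single cells were sorted at E10.5 and E11.5 (days of embryonic development) without any treatment, and the study was about NOTCH1 and JAGGED1 in the making of embryonic blood stem cells, from haemogenic endothelium (HE) to intra-aortic haematopoietic clusters (IAHC). GFI1+ HE was gated as CD31+cKIT-GFI1+, GFI1+ IAHC as CD31+cKIT+GFI1+, and GFI1- IAHC as CD31+cKIT+GFI1-. Of 775 kept cells, E10.5 GFI1+ HE made up 14.1% (18 cells in batch GL58 and 91 in GL78) and E10.5 GFI1+ IAHC 15% (29 in GL69 and 87 in GL78). At E11.5, GFI1+ HE made up 22.2% (19 cells in GL58, 40 in GL78 and the rest in GL53), GFI1+ IAHC 31% (240 cells in GL53, GL58 and GL78) and GFI1- IAHC 17.4% (91 in GL53 and 44 in GL78). A further 3 GFI1- IAHC cells at E10.5 entered no comparison.

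Before S phase, the MCM2-7 ring is loaded onto origins by ORC, CDC6 and CDT1, a step called licensing. At the start of S phase, CDC45 and GINS join the ring to make the active helicase, and polymerases, clamp and ligase then copy both strands. Many genes of this machinery are transcribed under E2F factors late in G1, which is why they are widely used to mark cycling cells, and endothelial and blood-forming cells of the embryo are known for active cycling.

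The labels named no animal, and the study pooled the AGMs of several embryos, so a sorted group is a single sample here. Differences are therefore given without tests or p-values, as a size with its spread over 4 labelled batches, named GL53, GL58, GL69 and GL78. The sources used here do not say how the batches relate to the study's separate sorts. The counts of a group's cells in a batch were added up before scaling. A log2 ratio was taken within each batch with a pseudocount of 1 CPM and averaged over batches, and the ± below is the SD over batches. A gene was counted as higher or lower in a comparison if it had at least 10 CPM on the higher side and a difference of 1.5-fold or more, of the same sign in all batches used. The same count over all measured genes stands beside it as the background. Among kept cells the median depth was 727732 counts, and the 39 genes held 0.563% of all counts. Exact Poisson intervals for a member's summed count in the group comparisons reached at most 14.1% to either side. Such intervals speak to counting error alone, because reads without molecular identifiers are not independent molecules. No plate held cells of both stages, so stage and plate cannot be told apart.

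The region upstream of the start site holds letters of known S-phase control in several members, and 4 of these stretches are shown as examples: Mcm5 and Mcm6 because matches on both strands overlap there, Cdc6 because its S over G1 ratio below was among the highest, and Uhrf1 as a gene of methylation upkeep. Promoter windows of 250 bases before to 50 after the start of the gene (RefSeq, GRCm38.p6) were found for 33 of the 39 genes. The E2F letters searched were TTTGGCGC, TTTCGCGC, TTTCCCGC and TTTGCCGC on either strand, and they stand in capitals below. The stretches lie at chr8:75109316-75109407 (Mcm5, plus strand), chr1:128359768-128359855 (Mcm6, minus strand), chr11:98907973-98908060 (Cdc6, plus strand) and chr17:56304088-56304175 (Uhrf1, plus strand), each written 5′ to 3′ along the gene.
Mcm5: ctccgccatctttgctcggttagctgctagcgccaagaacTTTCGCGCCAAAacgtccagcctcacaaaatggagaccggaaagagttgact
Mcm6: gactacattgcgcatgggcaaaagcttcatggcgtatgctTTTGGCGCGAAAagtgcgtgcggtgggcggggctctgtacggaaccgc
Cdc6: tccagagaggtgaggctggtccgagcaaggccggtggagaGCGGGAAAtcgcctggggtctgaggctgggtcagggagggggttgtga
Uhrf1: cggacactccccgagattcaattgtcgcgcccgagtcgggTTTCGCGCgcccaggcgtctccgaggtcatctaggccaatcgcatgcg

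In Mcm5 and Mcm6, 2 matches on opposite strands overlapped, and so the capitals run over both. The E2F letters were found in 13 of 33 member windows (39.4%), against 2.605% of the 27025 windows of all genes and 5.3% of the 7515 windows of genes at 10 CPM or more. The 13 were Cdc6, Cdt1, Dnmt1, Gins3, Lig1, Mcm3, Mcm5, Mcm6, Mcm7, Pola1, Pold1, Rfc3 and Uhrf1. The CHR letters TTTGAA, known from genes of mitosis, were found in 5 member windows (15.2%) and CCAAT in 22 (66.7%), against 20.2% and 41.1% of all windows and 13.9% and 42.6% of those of genes at 10 CPM or more. In 17 windows of a list of mitosis genes the E2F letters were in 5.88%, the CHR letters in 76.5% and CCAAT in 94.1%. A match is a run of letters and not a bound site. The 13 members with E2F letters had a median log2 ratio of S over G1 cells of 1.30, and the 20 without, Fen1 among them, had 1.57.

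The members were expressed at very different levels. Per kb of exon, over all kept cells, Mcm3 stood highest at 110.3 CPM, followed by Pcna at 103.6, Rrm2 at 87.4 and Mcm6 at 82.3 CPM per kb. Pcna (ENSMUSG00000027342, chromosome 2, 132249162 to 132253314 in GRCm38) encodes the sliding clamp and had reads in 93.03% of the cells. Its pseudogenes Pcna-ps1 and Pcna-ps2 can share its reads, so its level is uncertain. The lowest levels per kb were those of Fen1 (1.03), Pole (4.96), Chaf1a (5.82) and Mcm10 (6.93). Fen1 (chromosome 19, 10199132 to 10204169), the flap endonuclease of Okazaki fragments, had 2.49 CPM and reads in 43.6% of cells, or 16% once every cell was thinned to 100000 counts. It overlaps Tmem258 and Gm10143 on the other strand, the sources used here do not give the strand setting of the counting, and reads of the overlap cannot be assigned to a gene. Fen1 did not reach 10 CPM, and the medians over 38 members given for each comparison leave it out. Overlaps with genes on the other strand also exist for Mcm7, Cdc45, Gins2, Pola1, Pole, Rfc2, Rfc4, Rfc5, Lig1, Tk1, Chaf1a and Slbp.

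The authors had called a cell cycle phase for each cell with Cyclone, from the expression of gene pairs in the same cells, so the phase values that follow are a description and not independent evidence. Of the kept cells 48.9% were called G1, 10.7% S (83 cells) and 40.4% G2M. The summed CPM of the 39 genes had a median of 2805 per cell in G1, 10293 in S and 5558 in G2M. The quartiles were 1556 to 5204, 8179 to 12023 and 3854 to 8336 CPM, so that the middle ranges of G1 and S did not meet and that of G2M overlapped both. Single cells did overlap, with 12.4% of G1 cells at or above the first quartile of S cells. The median number of members with reads was 20 in G1, 37 in S and 35 in G2M, and 19, 36 and 33 at equal depth. A list of 20 mitosis genes was ordered differently, with medians of 386 CPM in G1, 2848 in S and 6534 in G2M.

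Between S and G1 cells, 36 of 38 members were higher (background 8.01% of 10222 genes) and 0 were lower (background 9.85%). The median log2 ratio was 1.42 ± 0.29, 1.60 in GL53 and 1.20 in GL78, and that over all genes was -0.07. Both members that missed the count, Gins4 and Rfc1, were above 0 in both batches. When ratios were taken within batch and sorted group, 16 members were counted, against 1.45% of all genes.

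Among the licensing genes, Cdc6, which loads the ring, was at 191.6 against 28.8 CPM in GL53 and 236.9 against 57.2 CPM in GL78, a log2 ratio of 2.36 ± 0.47. Its partner Cdt1 was at 1.64 ± 0.20. The 6 ring subunits moved less and did not move alike: Mcm5 stood at 1.43 ± 0.20, Mcm4 at 1.32, Mcm7 at 1.30 and Mcm6 at 1.27, but Mcm3 and Mcm2 at 0.95 ± 0.11 and 0.92 ± 0.12. Mcm3, the most abundant of them per kb, was already at 288.5 and 390.9 CPM in G1 cells of GL53 and GL78, against 590.3 and 720.1 CPM in S cells. The 8 licensing genes had a median of 1.31.

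Helicase activation held the widest range. Mcm10, which helps to start the helicase, was at 118.4 against 12.4 CPM in GL53 and 136.2 against 23.3 CPM in GL78 (2.83 ± 0.47). Gins4 encodes a subunit of the GINS complex, as Gins1 to Gins3 do, and it barely differed, with 92.2 against 82.7 CPM in GL53 and 110.4 against 75.4 CPM in GL78 (0.35 ± 0.27). Gins1 and Gins3 stood at 1.51 and 1.28, with Gins2 between them. Gins4 had the lowest ratio of the 4 subunits in both batches.

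The polymerase genes Pola1, Pold1 and Pole and the primase gene Prim1 had a median of 1.37. The clamp gene Pcna was at 461.4 against 147.6 CPM in GL53 and at 433.8 against 188.1 CPM in GL78 (1.42 ± 0.31), but its loader genes spread from Rfc5 at 1.82 to Rfc2 at 0.81 ± 0.09. Rpa3, the smallest subunit of the single-strand binding complex, was at 0.75 ± 0.16, less than Rpa2 at 1.57 ± 0.34.

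Nucleotide supply rose most as a group, with a median of 1.91 over 4 genes. Rrm2 (chromosome 12, 24708241 to 24714146), the cell-cycle-limited subunit of ribonucleotide reductase, went from 59.8 to 584.7 CPM in GL53 and from 88 to 548.2 CPM in GL78. This ratio of 2.95 ± 0.45 was the highest of all members. Tyms, the thymidylate synthase gene, stood at 1.60 ± 0.74. Dnmt1, which copies methylation onto the new strand, was at 0.83 ± 0.12, and its partner Uhrf1 was at 1.47 ± 0.37.

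G2M cells separated the members further. Over G1 cells the median was 0.55 ± 0.30 (all genes, -0.04), 0.88 in GL53, 0.29 in GL58 and 0.56 in GL78. There were 9 members higher (background 3.11% of 9917 genes) and 1 lower, Ung (background 3.22%). Without GL58 16 members were counted as higher (all genes, 4.14%), and within batch and sorted group 2 (all genes, 1.49%). Of the 39 members, 38 were lower in G2M than in S cells, and Gins3 was the exception at 0.03.

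Nucleotide supply stayed high in G2M, with a median of 1.45. Rrm2 was at 329.7, 278.7 and 312.2 CPM in G2M cells of GL53, GL58 and GL78, against 59.8, 147.1 and 88 CPM in G1 cells (1.72 ± 0.77). Tk1, the thymidine kinase gene, was at 1.66 ± 0.57 and Tyms at 1.20 ± 0.49. Mcm10 was also at 1.66 ± 0.77. Licensing genes were near their G1 level, with a median of 0.24: Mcm2 stood at -0.17 ± 0.15, Cdc6 at -0.05 ± 0.65, Mcm3 at 0.01 ± 0.23, Mcm6 at 0.17, Cdt1 at 0.32, Mcm4 at 0.34, Mcm5 at 0.43 and Mcm7 at 0.62. Cdc6 was not of 1 sign over the batches, with 42.5 against 28.8 CPM in GL53 and 47.6 against 80.2 CPM in GL58.

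Ung (chromosome 5, 114130386 to 114139323), which encodes the enzyme that removes uracil from DNA, showed a course of its own. It was higher in S than in G1 cells at 1.77 ± 0.60 and lower in G2M than in G1 cells at -1.39 ± 0.32. The levels in G2M cells were 17.3, 28.5 and 43.4 CPM in GL53, GL58 and GL78, against 39.5, 98.5 and 107.1 CPM in G1 cells, and G2M lay below G1 in each batch. Pcna and Dnmt1 were at 0.40 ± 0.63 and 0.42 ± 0.43 in G2M over G1, within their spread over batches.

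**Figure D1:**
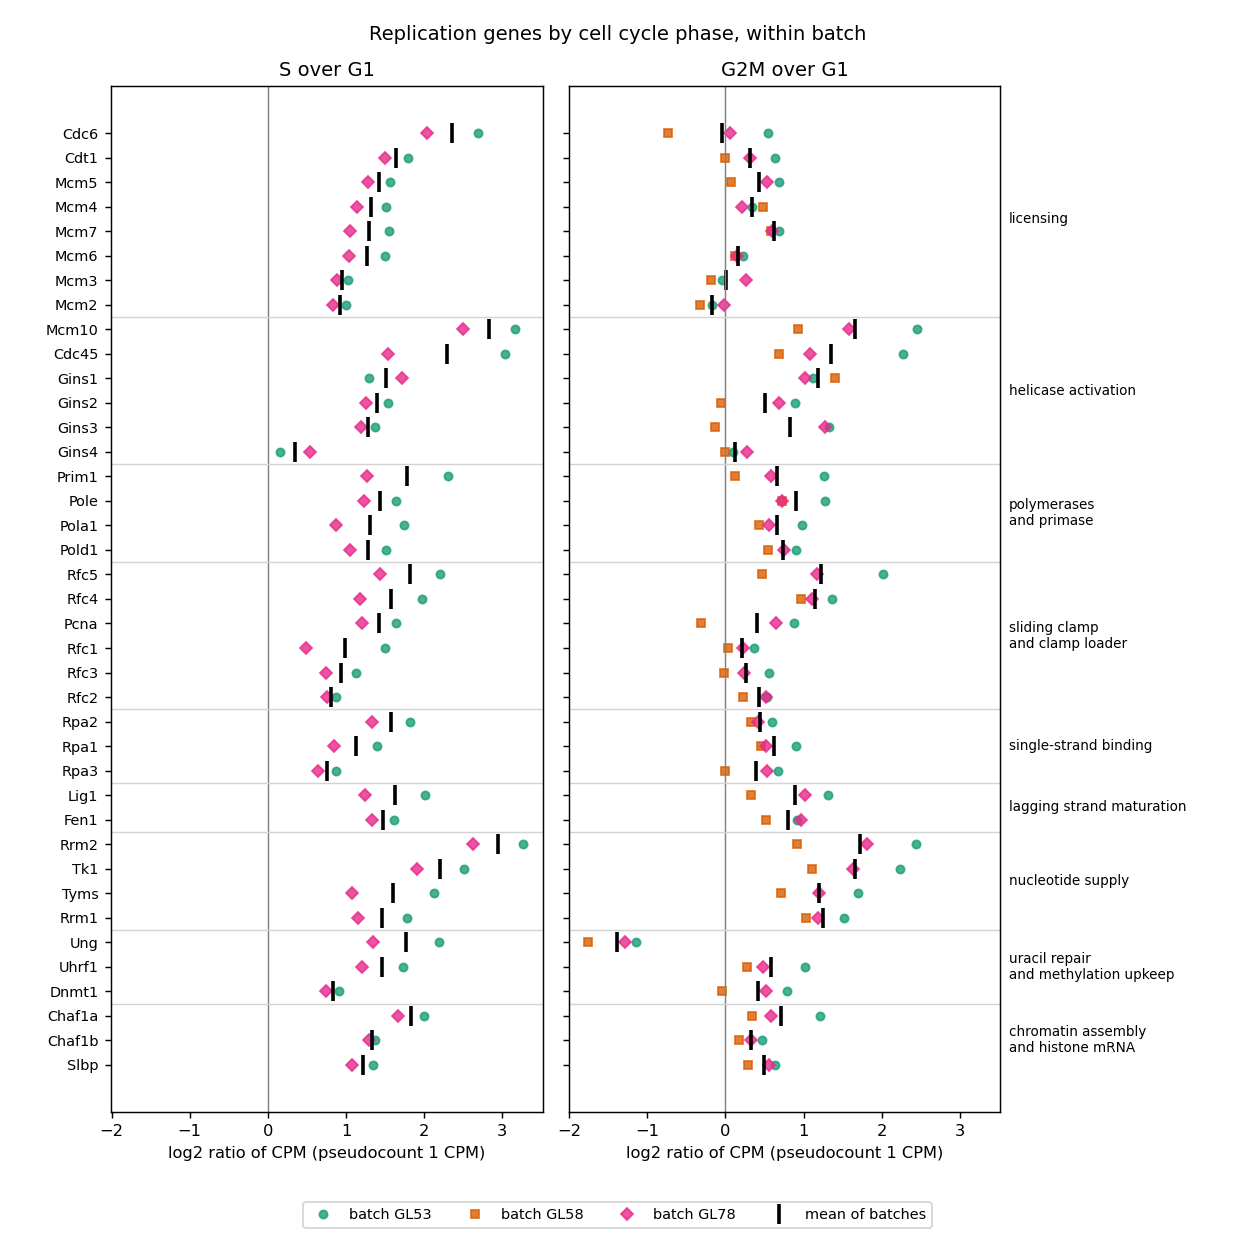
Log2 ratio of CPM (pseudocount 1 CPM) of each of the 39 genes in S over G1 cells (left) and G2M over G1 cells (right), grouped by role, with a symbol for each batch and a bar for the mean of batches. Every gene lies above 0 on the left, with Rrm2 highest at a mean of 2.95 and Gins4 lowest at 0.35. On the right the mean of Ung lies at -1.39, while the means of the nucleotide supply genes over batches stay above 1.

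Sorted groups differed in their phase shares. S cells made up 11.9% of E10.5 GFI1+ HE (exact binomial interval 6.51% to 19.5%), 19.8% of E10.5 GFI1+ IAHC (13% to 28.3%), 7.56% of E11.5 GFI1+ HE (4.09% to 12.6%), 7.92% of E11.5 GFI1+ IAHC (4.83% to 12.1%) and 11.1% of E11.5 GFI1- IAHC (6.35% to 17.7%). These intervals speak to counting error over cells alone, since each group is a single sample. Ordered by share, the intervals of neighbours overlapped, but that of E10.5 GFI1+ IAHC lay above those of GFI1+ HE and GFI1+ IAHC at E11.5. The E10.5 GFI1+ IAHC share includes GL69, at 31%, a batch that held no other group. Within GL78 the S shares were 13.2% in E10.5 HE and 16.1% in E10.5 IAHC. In the same batch at E11.5 they were 2.5% in HE (1 of 40 cells), 6.74% in GFI1+ IAHC (6 of 89) and 9.09% in GFI1- IAHC (4 of 44). The intervals of these E11.5 shares overlapped, at 0.0633% to 13.2%, 2.51% to 14.1% and 2.53% to 21.7%. G1 cells were 38.5% and 23.3% of the E10.5 groups and 59.9%, 55.8% and 54.1% of the E11.5 groups. Within GL78, which held all 5 groups, the G1 shares were 42.9% in E10.5 HE, 27.6% in E10.5 IAHC, 57.5% in E11.5 HE, 57.3% in E11.5 GFI1+ IAHC and 54.5% in E11.5 GFI1- IAHC. GL58 held a lower G1 share, 31.6% of E11.5 HE and 33.3% of E11.5 IAHC. Of the 19 S cells of E11.5 GFI1+ IAHC, 9 were in cluster 8, which carried germ cell markers. Without clusters 6 to 10 the S share of this group was 4.31%. Of the 15 S cells of E11.5 GFI1- IAHC, 5 were in cluster 6, which carried mesenchyme markers. A further 4 were in cluster 7, which carried lymphatic and venous markers, and 1 was in cluster 8.

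In these sums a smaller share of cycling cells and less of each RNA per cell cannot be told apart, so the comparisons between sorted groups are given over all cells and then within a phase. At E11.5 the members were lower in GFI1+ HE than in GFI1+ IAHC by a small amount in nearly every gene. The median was -0.34 ± 0.09 (all genes, -0.08), with -0.44 in GL53, -0.36 in GL58 and -0.26 in GL78, and 36 of 38 members lay below 0, 26 of them in every batch. At 1.5-fold in every batch, 1 member was lower (background 2.18% of 9912 genes) and 0 were higher (background 2.3%), so the counts were near the background. Leaving out GL53, GL58 or GL78 in turn gave 5, 4 or 2 members lower, against 5.88%, 5.63% and 4.4% of all genes.

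The member counted as lower was Chaf1a, the large subunit of the factor that places histones behind the fork. It was at 19.3 against 45.6 CPM in GL53, 33.1 against 60.6 CPM in GL58 and 25.9 against 48 CPM in GL78 (-0.97 ± 0.20), and HE lay below IAHC in each batch. Ung had the lowest mean, with 33.4 against 49.1 CPM in GL53, 26.6 against 99.5 CPM in GL58 and 36 against 101.9 CPM in GL78 (-1.29 ± 0.68). Gins3 stood at -0.87 ± 0.39.

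The ring subunits at E11.5 were all below 0 in each of the 3 batches, from Mcm2 at -0.66 ± 0.34 to Mcm5 at -0.35 ± 0.18, with Mcm7 at -0.56, Mcm3 at -0.43, Mcm4 at -0.42 and Mcm6 at -0.37. Dnmt1 was at -0.40 ± 0.12, Cdc6 at -0.32 ± 0.14, Pcna at -0.27 ± 0.19 and Rrm2 at -0.17 ± 0.12. Cdt1 (-0.13 ± 0.69) and Tyms (-0.24 ± 0.65) were not of 1 sign, since Cdt1 was higher in HE in GL58 and Tyms in GL78. The highest members were Uhrf1 at 0.07 ± 0.45, Gins2 at 0.06 ± 0.25 and Tk1 at -0.11 ± 0.06. In cluster 8, Uhrf1 was at 15.4 CPM, against 127.7 to 425.3 CPM in clusters 0 to 5. Gins2 was at 25.7 CPM there, against 45.4 to 133.3 CPM, while Tk1 at 92.1 CPM lay within 39.7 to 182.6 CPM.

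The difference at E11.5 was not of 1 size in all phases. Among G1 cells the median was -0.87 and 38 of 38 members lay below 0, with -0.65 in GL53 (74 HE and 73 IAHC cells), -0.64 in GL78 (23 and 51) and -1.49 in GL58 (6 and 10). Among G2M cells (56 and 87) it was -0.02, with 22 of 38 below 0, and it was 0.07 without GL53. Among S cells it was -0.37 in GL53 alone, from 9 cells on each side. G1 cells of E11.5 HE had a median summed CPM of 1586, the lowest of the 5 groups, against 2989 in GFI1+ IAHC. Whether the phase differences themselves differ beyond chance was not tested.

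Cluster makeup moved with this comparison. Cluster 4, with an arterial marker sum of 5201 CPM, held 24.4% of E11.5 HE and 0.833% of E11.5 GFI1+ IAHC cells, and cluster 2, which carried haematopoietic and myeloid markers, held 4.07% and 16.3%. The germ cell marker list (Dppa3, Pou5f1, Dazl, Dppa5a, Utf1 and Tfap2c) summed to 0 to 0.710 CPM in HE batches and 173.1 to 1241 CPM in IAHC batches. Without clusters 6 to 10 the median was -0.19, and when ratios were taken within cluster and batch it was -0.13. Without clusters 2, 4 and 6 to 10 it was -0.01. The last 2 settings were chosen after the values had been seen, as was the split by cluster that follows. The median was -0.34 in cluster 0 (20 HE and 81 IAHC cells), -0.31 in cluster 1 (67 and 39) and -0.06 in cluster 3 (19 and 28). In cluster 5 it was 0.49, from 11 and 9 cells in GL53 alone. The part of cluster makeup in the difference was not tested further.

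At E10.5 the comparison rested on GL78 alone, with 91 HE and 87 IAHC cells, and has no spread. The median was -0.39 (all genes, -0.02) and 36 of 38 members lay below 0. There were 4 members lower (background 7.47% of 9568 genes) and 0 higher (background 12.4%), a share of 38 near the background. They were Rfc5 of the clamp loader, at 76.8 against 136.9 CPM (-0.83), Tk1 at 112.6 against 188.9 CPM (-0.74), Ung at 83.3 against 138.7 CPM (-0.73) and Chaf1a at 53.8 against 89.6 CPM (-0.73). The ring subunits ran from -0.50 (Mcm5) to -0.34 (Mcm6), Pcna was at -0.52, Dnmt1 at -0.49, Tyms at -0.41, Cdt1 at -0.38 and Rrm2 at -0.28. Cdc6 was at 98.7 against 93.6 CPM (0.08), Gins3 at 0.26 and Rrm1 at -0.07, the 3 highest.

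Within a phase at E10.5 the medians were -0.57 in G1 cells (39 HE and 24 IAHC), -0.31 in S cells (12 and 14) and -0.23 in G2M cells (40 and 49). The megakaryocyte marker list summed to 3309 CPM in HE and 68.7 CPM in IAHC of GL78. Over the E10.5 cells of all batches, 10.1% of HE cells (11) were in cluster 9, which carried these markers. Over the same cells, cluster 4 held 24.8% of HE against 1.72% of IAHC, and cluster 2 held 10.1% against 36.2%. Without clusters 6 to 10 the E10.5 median was -0.31, within cluster and batch it was -0.23, and without clusters 2, 4 and 6 to 10 it was -0.17.

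GFI1+ and GFI1- IAHC at E11.5 were close. The median was 0.13 ± 0.18 (all genes, -0.02), 0.03 in GL53 and 0.28 in GL78, a difference within the spread over batches. There were 0 members higher (background 1.74% of 10332 genes) and 0 lower (background 3.93%), and 31 of 38 lay above 0, 17 of them in both batches. Without GL53 8 members were counted as higher, against 1060 of 10133 genes in all. The highest members were Rpa3 at 0.49 ± 0.41, Gins4 at 0.49 ± 0.64 and Tyms at 0.39 ± 0.38, and the lowest were Mcm10 at -0.18 ± 0.27, Mcm6 at -0.11 ± 0.03 and Pola1 at -0.07 ± 0.42. Cdc6 turned from 46 against 60.4 CPM in GL53 to 71.9 against 32.1 CPM in GL78. Steadier values were those of Mcm5 (0.36 ± 0.05), Mcm7 (0.27 ± 0.02), Mcm3 (0.24 ± 0.03), Pcna (0.13 ± 0.02) and Mcm4 (0.12 ± 0.03), while Mcm2 (0.13), Cdt1 (0.11), Dnmt1 (0.13) and Rrm2 (0.19 ± 0.84) were near 0 or uneven. Within a phase the medians were 0.34 in G1, 0.26 in G2M and 0.05 in S cells, but the G1 value was 0.11 in GL53 alone and 0.59 in GL78 alone. The mesenchyme marker list summed to 38.2 and 2011 CPM in the GFI1- batches, against 28.6 and 49.3 CPM in GFI1+ IAHC, and cluster 6, which carried it, held 23.7% of GFI1- IAHC.

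Between stages the members were lower at E11.5 than at E10.5 in both GFI1+ populations. These comparisons reuse the cells of the ones above, so their values are not separate evidence. In GFI1+ HE the median was -0.43 (all genes, -0.01), -0.51 in GL58 and -0.44 in GL78, an SD of 0.05 over batches. There were 7 members lower (background 5.2% of 9797 genes) and 0 higher (background 6.87%), and 37 of 38 lay below 0. In GL78 alone 14 members were counted (all genes, 14.7%), and in GL58 alone 15 (all genes, 16.7%). Cluster makeup moved with stage: cluster 1 held 13.8% of HE at E10.5 and 39% at E11.5, cluster 2 went from 10.1% to 4.07% and cluster 9 from 10.1% to 0.581%, and the endothelial marker list summed to 3399 and 6541 CPM. The part of these cells in the difference was not tested, but without clusters 6 to 10 the median was -0.38.

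Gins3 was the lowest at E11.5 in HE, with 13.1 against 44.2 CPM in GL58 and 13.4 against 28.3 CPM in GL78 (-1.36 ± 0.46). Ung was at 26.6 against 58.8 CPM and 36 against 83.3 CPM in the same batches (-1.15 ± 0.05). Mcm10 was at 34 against 86.5 CPM and 30.7 against 56.3 CPM (-1.09 ± 0.33). The other 4 were Chaf1a (-0.85), Mcm2 (-0.85 ± 0.02), Mcm7 (-0.82 ± 0.10) and Pole (-0.81), and the E11.5 value lay below the E10.5 value in both batches for all 7. Rrm2 stood at -0.75 ± 0.33, Cdc6 at -0.65 ± 0.39, Mcm3 and Mcm4 at -0.60, Mcm6 at -0.59, Mcm5 at -0.47, Cdt1 at -0.42 and Dnmt1 at -0.37. Tyms (-0.18 ± 0.52) and Pcna (-0.14 ± 0.34) differed in sign between batches. The highest members were Gins4 at 0.08 ± 0.23, Rfc5 at -0.09 ± 0.28 and Slbp at -0.12 ± 0.25.

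In GFI1+ IAHC, in GL78 alone (89 cells at E11.5 and 87 at E10.5), the median was -0.49 (all genes, 0.07). There were 12 members lower (background 9.14% of 9787 genes) and 0 higher (background 19.8%), and 37 of 38 lay below 0. The lowest were Rfc5 at 69.2 against 136.9 CPM (-0.97), Chaf1a at 48 against 89.6 CPM (-0.89) and Tk1 at 103.7 against 188.9 CPM (-0.86). The others were Gins2, Rrm2 (-0.75), Tyms (-0.71), Lig1, Gins1, Uhrf1, Cdc45, Rfc4 and Mcm10. Gins3, the lowest member between stages in HE, was the highest in IAHC at 0.19, followed by Pole at -0.05 and Rfc1 at -0.06. The ring subunits ran from -0.58 (Mcm6) to -0.31 (Mcm4), Cdt1 was at -0.46, Dnmt1 at -0.43, Cdc6 at -0.38 and Pcna at -0.36. Whether HE and IAHC differed in their change with stage was not tested. In GFI1+ IAHC of all batches, cluster 2 went from 36.2% at E10.5 to 16.3% at E11.5, cluster 5 from 16.4% to 4.58% and cluster 0 from 16.4% to 36.3%, and the endothelial marker list summed to 2321 and 4440 CPM. The part of this shift in the difference was not tested, and without clusters 6 to 10 the median was -0.53.

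Within a phase, the stage difference was again largest in G1 cells among the phases with values. For HE the medians were -0.71 in G1 cells of GL78 (23 cells at E11.5 and 39 at E10.5) and -0.13 in G2M cells, or 0.02 there without clusters 6 to 10. For IAHC they were -0.63 in G1 (51 and 24 cells, 38 of 38 members below 0), -0.20 in G2M and -0.01 in S, where 6 and 14 cells entered. The median summed CPM of G1 cells was 7275 in E10.5 IAHC, 2930 in E10.5 HE, 2989 in E11.5 GFI1+ IAHC, 2938 in E11.5 GFI1- IAHC and 1586 in E11.5 HE. Of the G1 cells, 44.4% (12 of 27) of E10.5 IAHC and 23.8% (10 of 42) of E10.5 HE were at or above the first quartile of S cells (8179 CPM). At E11.5 these shares were 13.4% of GFI1+ IAHC, 4.85% of GFI1+ HE and 2.74% of GFI1- IAHC. These pool all batches. In GL78 alone they were 37.5% (9 of 24) of E10.5 IAHC and 20.5% (8 of 39) of E10.5 HE. For the E11.5 groups, in the order above, they were 11.8%, 8.7% and 0% in GL78. S cells of the 5 groups had close medians of 9610 to 11337 CPM. The phases were called from expression in these same cells, so this closeness is a description and not independent evidence.

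**Figure D2:**
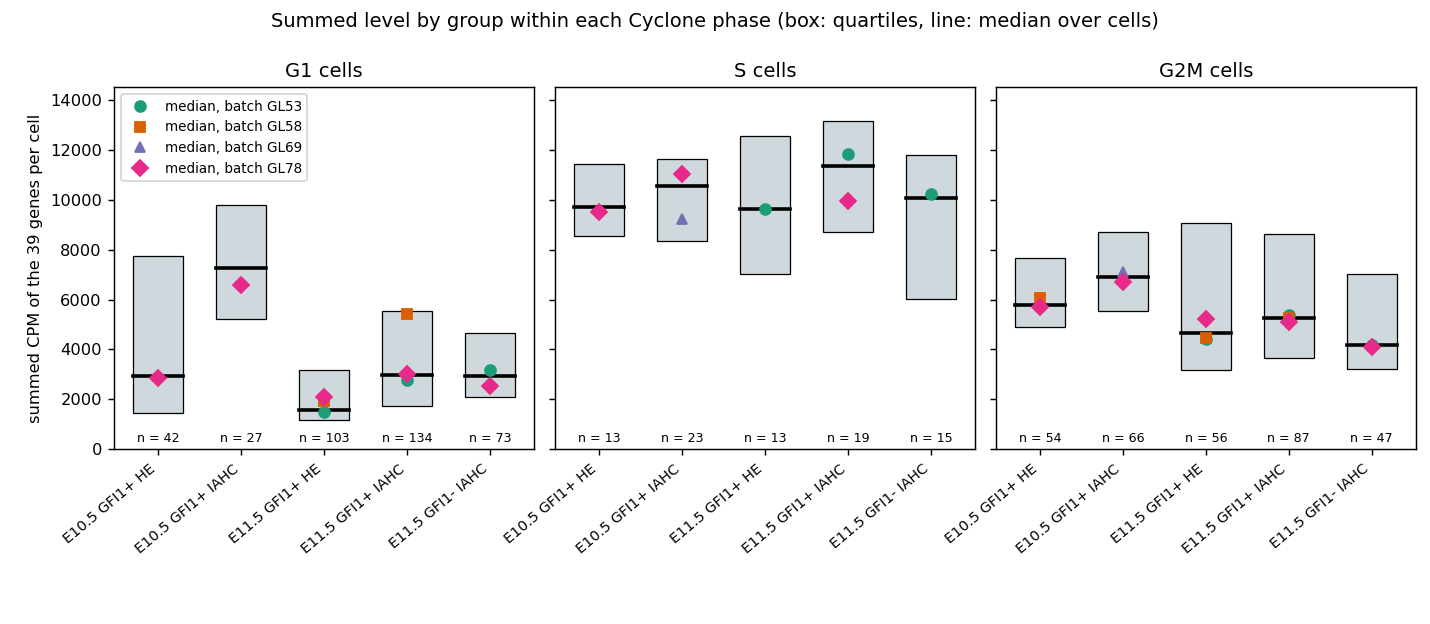
Summed CPM of the 39 genes per cell, by sorted group, in G1, S and G2M cells. Boxes span the quartiles over cells, lines are medians, and symbols are medians of batches with at least 5 cells. G1 medians run from 1586 (E11.5 GFI1+ HE) to 7275 (E10.5 GFI1+ IAHC), and S medians from 9610 to 11337. The phases were called from expression in the same cells.

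**Figure D3:**
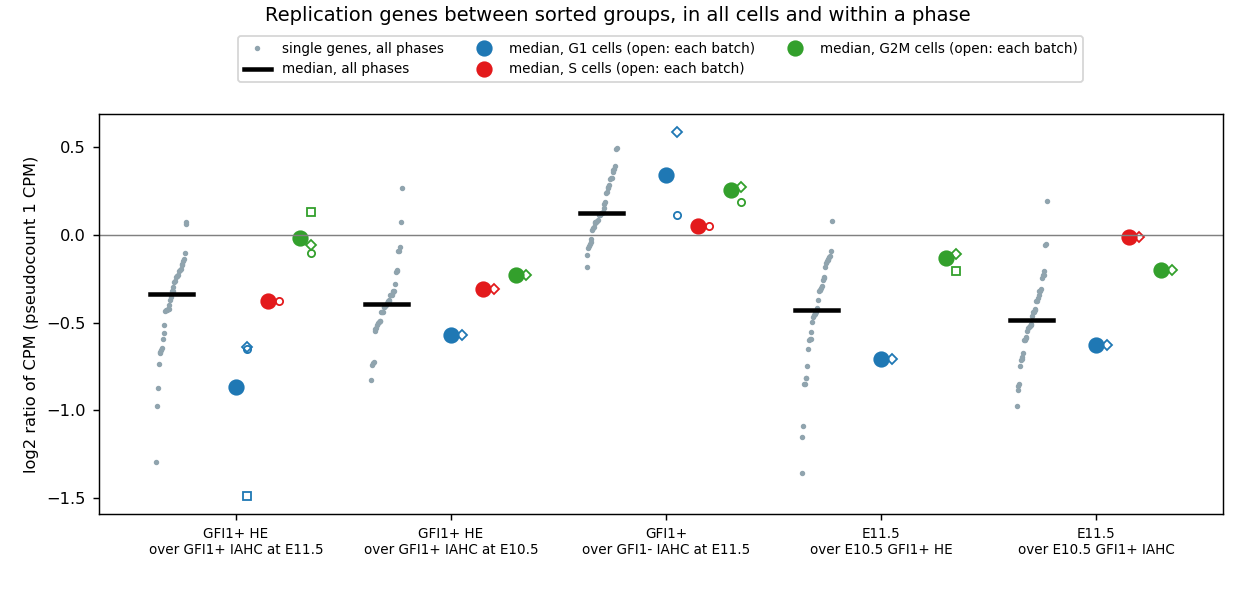
Log2 ratios of CPM (pseudocount 1 CPM) for the 5 group comparisons. Grey points are members over all phases and black bars their medians, filled circles are medians among G1, S or G2M cells, and open symbols are batches (circle GL53, square GL58, diamond GL78). The G1 medians lie farthest from 0 in each comparison, from -0.87 in GFI1+ HE over GFI1+ IAHC at E11.5 to 0.34 in GFI1+ over GFI1- IAHC.

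The authors grouped the cells into Louvain clusters with all variable genes, after read depth, mitochondrial content and cell cycle effects had been regressed out. A cluster's members are therefore a description of it. The median summed CPM was highest in cluster 8 at 11363 and cluster 5 at 9692, then cluster 2 at 6915, and lowest in cluster 9 at 1721 and cluster 4 at 1392. S cells were 48% of cluster 8, 43.9% of cluster 5, 17.4% of cluster 2 and 1.32% of cluster 4.

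Cluster 5 was set against clusters 0, 1 and 3 (53 cells of cluster 5 in the batches used), which like it carried endothelial markers, with sums of 4113 CPM in cluster 5 and 4236 to 5737 CPM in the others. The median log2 ratio was 0.70 ± 0.39 (all genes, -0.06), with 1.19 in GL53, 0.71 in GL78 and 0.41 in GL69. There were 9 members higher (background 0.77% of 9223 genes), 0 lower (background 2.17%), and 38 of 38 above 0. Without GL69 21 members were counted, against 2.53% of all genes. Ung was at 127.02 against 26 CPM in GL53, 228.2 against 52.7 CPM in GL78 and 143.6 against 24.1 CPM in GL69 (2.29 ± 0.22). Cdc6 was at 148.8 against 27.8, 286.7 against 62.2 and 237.5 against 78 CPM in the same batches (2.05 ± 0.41). Both were higher in cluster 5 in all 3 batches.

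Mcm10 (1.34 ± 0.78) was not counted, since it differed 1.5-fold in GL53 and GL78 but not in GL69. Beside Ung and Cdc6, Cdt1 (1.23 ± 0.23), Pcna (0.92 ± 0.44) and Mcm2 (0.78 ± 0.13) were counted, with Cdc45, Prim1, Rpa2 and Uhrf1. The other ring subunits stood between 0.67 (Mcm3) and 0.99 (Mcm4), Rrm2 at 1.11 ± 0.66, Dnmt1 at 0.60 and Tyms at 0.51. The lowest were Gins4 at 0.20 ± 0.20, Rpa3 at 0.26 ± 0.30 and Rfc3 at 0.26 ± 0.19. Mitosis genes lay the other way, with a median of -0.74 and 2 of 20 lower (background 2.17%). Among G1 cells alone, 14 of them from cluster 5, the members' median was 1.27, and 11 of the 18 G1 cells of cluster 5 were at or above the first quartile of S cells. The members' median was 0.63 in G2M cells, with 7 cells of cluster 5 in GL53 alone. In S cells it was 0.54, with 18 cells of cluster 5.

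Cluster 4 was set against cluster 1, which held 39% of E11.5 GFI1+ HE, with 33 and 38 cells of cluster 4 in GL53 and GL78. The median was -1.03 ± 1.06 (all genes, 0.01), which was not larger than its spread: it was -1.76 in GL53 and -0.26 in GL78. There were 8 members lower (background 11% of 9960 genes) and 0 higher (background 15.3%), and without GL78 35 members were counted, against 26.1% of all genes. Tk1 was at 2.23 against 60.4 CPM in GL53 and 70.9 against 129.2 CPM in GL78 (-2.55 ± 2.40). Rrm2 was at 7.16 against 161.99 CPM in GL53 and 172.9 against 277.95 CPM in GL78 (-2.50 ± 2.57). Chaf1b stood at -2.61 ± 2.98, the lowest mean with the pseudocount. The G1 share of cluster 4 was 93.9% in GL53 and 71.1% in GL78, against 53.5% and 43.8% of cluster 1.

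Cdc6 had 0 reads in the 33 cells of cluster 4 in GL53, against 20.8 CPM in cluster 1, and it was at 71.3 against 67 CPM in GL78. A floor of 3 counts over the cluster 4 cells would make the GL53 difference 143.27-fold. That floor allows for counting error alone and is not a lower limit. Reads are not independent molecules, and Cdc6 had reads in only 27.4% of all kept G1 cells. With Cdc6 at that floor its mean over batches was -3.54, and the members' median stayed -1.03. Mcm2 was at -1.46 ± 0.40, Mcm3 at -1.14, Mcm5 at -1.07, Mcm4 at -1.04, Mcm7 at -0.84, Mcm6 at -1.44 ± 1.69, Dnmt1 at -1.03 ± 1.03, Cdt1 at -0.95, Tyms at -0.91 and Pcna at -0.90. The highest were Rpa3 at 0.24 ± 0.36, Rpa2 at -0.03 ± 0.08 and Rfc1 at -0.28 ± 0.37. Among G1 cells alone (58 and 59) the median was -0.66. Among G2M cells, in GL78 alone (10 and 24), it was -0.12, with 17 of 38 members above 0.

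Cluster 2, with haematopoietic and myeloid markers, was set against cluster 0 (96 cells of cluster 2 in GL53 and GL78). The median was 0.63 ± 0.45 (all genes, 0.11), 0.90 in GL53 and 0.26 in GL78. There were 7 members higher (background 16.8% of 10382 genes) and 0 lower (background 15.3%), a share near the background, and without GL78 27 members were counted, against 29.9% of all genes. Rfc2, a clamp loader subunit, was at 415.9 against 118.3 CPM in GL53 and 334.8 against 184.3 CPM in GL78 (1.33 ± 0.67). Pola1, the catalytic subunit of polymerase alpha, was at 1.33 ± 0.80 and Ung at 1.32 ± 0.52. Pcna (0.58), Dnmt1 (0.64), Cdc6 (0.82 ± 0.98), Cdt1 (0.78), Tyms (0.32) and the ring subunits, from 0.27 (Mcm3) to 0.79 (Mcm7), were above 0, and Rrm2 (0.08 ± 0.90) differed in sign between batches. The lowest were Gins3 at -0.37 ± 0.24, Rrm1 at 0.04 ± 0.75 and Chaf1b at 0.05 ± 0.03. Within a phase the members' median was 0.89 in G1 cells (47 and 89) and 0.23 in G2M cells (35 and 63).

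**Figure D4:**
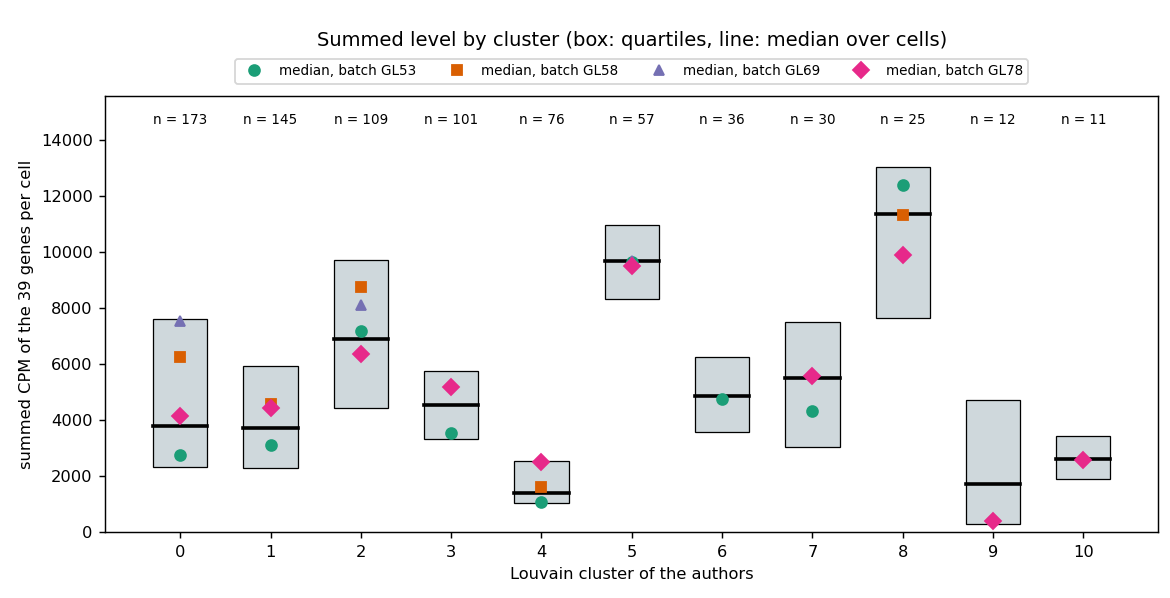
Summed CPM of the 39 genes per cell in each of the authors' Louvain clusters. Boxes span the quartiles over cells, lines are medians and symbols are medians of batches with at least 5 cells. Clusters 8 and 5 stand highest at 11363 and 9692, and cluster 4 lowest at 1392.

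Other genes of the pathway followed the members to different degrees. Of 34 other replication genes, 20 were higher and 1 lower in S over G1 cells, with a median of 0.99, from Pold4 at -1.08 to Recql4 at 2.35. Over all genes in that comparison, 8.01% were higher and 9.85% lower. Of 20 other genes of nucleotide supply and S-phase chromatin, 16 were higher, with a median of 1.37, and Rrm2b, the p53-linked reductase subunit, was the lowest at -1.67. Of 15 regulators of the G1/S step, 7 were higher, with a median of 0.77. The factor gene E2f8 was at 3.15 ± 0.04 and the cyclin gene Ccne1 at 2.17 ± 0.36. The 20 mitosis genes were all higher, with medians of 2.18 in S and 3.76 in G2M over G1, and for these phases too the calls came from the same cells. In G2M over G1, 3.11% of all genes were higher.

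In GFI1+ HE over GFI1+ IAHC at E11.5 the medians were -0.31 for other replication genes (2 of 34 lower), -0.39 for other S-phase genes (1 of 20 lower, and Rrm2b higher at 0.90), -0.14 for G1/S regulators and -0.11 for mitosis genes (0 of 20 in either direction). Of all genes, 2.18% were lower and 2.3% higher in that comparison. In HE between stages the medians of the same lists were -0.24, -0.34, -0.14 and -0.01, and in IAHC between stages -0.35, -0.42, -0.26 and -0.36.

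Across the 775 cells, after batch medians had been subtracted, all 741 pairs of members had a Spearman correlation above 0, with a median of 0.37. The highest was that of Rrm2 with Tk1 at 0.69. The cells share libraries, depth and phase. Within a phase the median fell to 0.33 in G1, 0.24 in G2M and 0.21 in S cells, where Pcna with Lig1 stood highest at 0.66. Against the sum of the other members, Pcna was the closest at 0.77 and Gins4 the farthest at 0.33. Of 9544 other genes at 10 CPM or more, those closest to the members' sum included Pcna-ps2 (0.75), which shares sequence with Pcna, Gmnn (0.71), the licensing inhibitor geminin, Dut (0.69), the dUTPase that keeps uracil out of DNA, the histone chaperone gene Nasp (0.68), and then Clspn, Hells, Tipin, Ranbp1, Exo1, Dnajc9, Mybl2, Dek and Atad2 (0.67 to 0.62). At the other end stood Itm2b (-0.40) and the endothelial receptor gene Tie1 (-0.37). Within group and batch, the members' sum had correlations of -0.10 to 0.28 with a cell's read depth.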

How the data were processed

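Single cells were index sorted, and each gave 1 Smart-Seq2 library. The authors deposited raw counts, whose processing notes name STAR 2.7.3, HTSeq 0.9.1 and mm10. No source used here gives the annotation release or the strand setting. The authors' cell filter, Louvain clusters (Scanpy 1.4.4) and Cyclone phases were taken from the deposited annotation. The 92 spike-in rows held 0 counts. Symbols came from GENCODE M21 (GRCm38) for 45229 of 46078 genes, leaving 0.0575% of counts unnamed, and promoter windows from RefSeq. Of the annotation's columns, 9 were not used, nor was the deposited normalized table. The fluorescence intensity of the sort signals and the mitochondrial fraction were deposited by the authors and used only for correlations with the members' sum.

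Comparisons within batch needed at least 10 cells on each side, or 5 within a phase. Medians cover members at 10 CPM or more on either side. For depth checks, cells were thinned to 100000 counts (seed 7). Shares have exact (Clopper-Pearson) 95% intervals. The procedure was tested on simulated data. Python 3.11.15, numpy 2.4.6, pandas 2.3.3, scipy 1.17.1 and matplotlib 3.10.9 were used. Described for each comparison were the 3 highest and 3 lowest members, and Pcna, Mcm2 to Mcm7, Cdc6, Cdt1, Rrm2, Tyms and Dnmt1 whatever their values. Other members named beside a count, such as those counted as higher or lower, were chosen after their values were seen. For the genes most like the members, the rule was to name the 15 with the highest correlation, of which 2 are not reported here. The members and gene lists were chosen with earlier results of these data known. No doublet caller was run. The 85 cells that the authors left out and the 3 E10.5 GFI1- IAHC cells entered no comparison.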

Additional observations from a re-analysis of the deposited data

Results flagged for a closer look

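The 85 cells that the authors' filter left out also held reads of the members, in data that no comparison above uses. Their median summed CPM was 2776, with quartiles of 1008 and 5105, at a median of 234709 counts per cell, against a median of 2805 in kept G1 cells.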

How the results depend on the processing

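Of the values for groups and gene lists recomputed under other settings, 54 moved, 3 reversed and the rest kept their size and direction, and of those for single genes 1149 kept them and the rest moved. For GFI1+ HE over GFI1+ IAHC at E11.5, the median was -0.19 without clusters 6 to 10, -0.13 within Louvain cluster and batch and -0.0074 without clusters 2, 4 and 6 to 10. The members counted as lower were 0 with thinned cells, 0 at 2-fold, 0 within cluster, 2 within plate and 2 to 5 with a batch left out. In the same order, 2.48%, 0.918%, 0.0213%, 2.24% and 4.4% to 5.88% of all genes were lower. At E10.5, the median was -0.37 with a pseudocount of 10 CPM, -0.38 with size factors, -0.43 with the mean over cells, -0.43 with thinned cells, -0.31 without clusters 6 to 10, -0.23 within cluster and -0.17 without clusters 2, 4 and 6 to 10. The members counted as lower were 0 at 2-fold (all genes, 1.99%), 0 within cluster (0.185%) and 1 without clusters 2, 4 and 6 to 10 (7.12%). For GFI1+ over GFI1- IAHC, 1 was counted without clusters 6 to 10 and 0 to 8 with a batch left out. For the stages of HE, the median was -0.37 with a pseudocount of 10 CPM and -0.51 to -0.44 with a batch left out. The count was 2 at 2-fold (all genes, 1.99%) and 14 to 15 with a batch left out (all genes, 14.7% to 16.7%). For the stages of IAHC, the median was -0.45 with that pseudocount, -0.58 with size factors, -0.51 with no minimum, -0.52 with thinned cells and -0.53 without clusters 6 to 10. With size factors 19 were counted (all genes, 12.1%), and 0 were counted at 2-fold (all genes, 2.48%). For S over G1, 16 were counted within batch and group (all genes, 1.45%). For G2M over G1, 3 were counted as higher at 2-fold (all genes, 1.87%) and 2 within batch and group (1.49%). With a batch left out 9 to 16 were counted (all genes, 3.9% to 4.92%). At 2-fold, 4 were counted for cluster 5 (all genes, 0.163%), 1 for cluster 4 (5.16%) and 0 for cluster 2 (10.1%). With a batch left out the counts were 10 to 21, 8 to 35 and 7 to 27. The shares of all genes beside these were 1.83% to 2.53%, 18% to 26.1% and 22.7% to 29.9%.

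Within a phase and without clusters 6 to 10, the E11.5 HE over IAHC medians were 0.0234 in G2M, which reversed, and -0.22 in S, and those at E10.5 were -0.49 in G1 and -0.13 in S. GFI1+ over GFI1- IAHC had 0.12 in G2M, the stages of HE had -0.87 in G1 and 0.0232 in G2M, which reversed, and the stages of IAHC had -0.77 in G1 and -0.16 in G2M. With a batch left out, the G2M medians were -0.0943 to 0.0700 for HE over IAHC at E11.5, 0.19 to 0.27 for GFI1+ over GFI1- IAHC and -0.20 to -0.11 for the stages of HE. The S share of E11.5 GFI1+ IAHC was 4.31% without clusters 6 to 10. The causes of these changes were not tested. A comparison of the stages within plate gave no value, since no plate held both. No paired analysis was possible because the labels number no sorts or animals. With 1 sample per group, the batches limit what can be said to size and spread, and for Fen1 and for Cdc6 in cluster 4 the counts limit the ratio.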

Other observations

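The 3 kept GFI1- IAHC cells of E10.5 were all called G2M, and their summed CPM of the 39 genes was 4534, 5183 and 10875. Within 8 sets of at least 30 cells of 1 group and batch, the Spearman correlation of the summed level with each of 9 sort signals had medians over the sets from -0.20 (CD41, -0.34 to 0.16) to 0.11 (cKIT, -0.14 to 0.33). CD41 and CD45 (median -0.11) were above 0 in 1 of the 8 sets each and NOTCH2 (median 0.07, -0.08 to 0.36) in 7, and JAG1, DLL4, GFI1, CD31 and NOTCH1 had medians of -0.08 to 0.08. Of the 25 cells of cluster 8, which carried germ cell markers at a summed 4877 CPM, 12 were called S, and all 5 of its G1 cells were at or above the first quartile of S cells.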
